A study of Mus musculus with 17 samples.

Results

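The chemokine and positioning receptors described here were 9 genes, Cxcr4, Cxcr5, Ccr6, Ccr7, Ccr9, Ccr10, S1pr1, S1pr2 and Gpr183, with ATAC-seq accessibility values in mouse B cells and plasma cells. Their members were all regions of the table that named one of these genes as the gene with the nearest transcript or the nearest transcription start, which gave 141 of 66177 regions. Cxcr4 held 40 of them, S1pr1 33, Gpr183 16, Ccr7 14, Ccr6 13, Cxcr5 11, Ccr9 9, S1pr2 4 and Ccr10 1. ATAC-seq inserts sequencing adapters with a transposase into accessible DNA, so that reads pile up where chromatin is open. Values were RPPM, the reads in a region scaled to 1000000 reads in all regions of the same library.

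The study asked how B cell differentiation proceeds without Dnmt3a and Dnmt3b, enzymes that add methyl groups to unmethylated DNA. Dnmt3-deficient mice (KO) were Dnmt3afl/flDnmt3bfl/fl with 1 Cre allele active in B lineage cells, which deletes the floxed parts of both methyltransferase genes. Littermate controls (C) were Dnmt3afl/flDnmt3bfl/fl with no Cre, all on the background B6;129S4-Dnmt3atm3.1Enl Dnmt3btm5.1Enl/Mmnc. The 16 libraries in the table covered naive B cells (nB; B220+ Fas- GL7-) from lymph nodes of male, unimmunized mice, with 3 C and 2 KO libraries. Phycoerythrin (PE)-specific germinal center B cells (GCB; B220+ Fas+ GL7+ PE+) came from lymph nodes of mice immunized with PE 30 days earlier, as pools of mice, with 2 C libraries (1 female and 1 male pool) and 4 KO libraries (3 female and 1 male). Bone marrow plasma cells (BMPC; CD138+) came from female immunized mice on the same day, with 3 C and 2 KO libraries; the table has no column for the 3rd KO BMPC sample of the labels. Sex, tissue and immunization all differed between nB and BMPC, so their shares in that difference cannot be told apart from cell type. GCB differed from nB in immunization and partly in sex, and from BMPC in tissue and partly in sex. The share of female pools also differed between C and KO GCB, and sex was not a term of the fit. The Cre allele likewise cannot be told apart from the deletion. Bulk libraries also cannot tell fewer cells with an accessible region from less access per cell.

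Chemokine and positioning receptors are G protein-coupled receptors on the cell surface that sense gradients of chemokines, oxysterols or the lipid sphingosine 1-phosphate and steer cell migration. In lymph nodes, Cxcr5, the receptor for Cxcl13, draws naive B cells into follicles, Ccr7, the receptor for Ccl19 and Ccl21, draws them toward the T cell zone, and Gpr183, a receptor for dihydroxycholesterols, guides them to the outer follicle. S1pr1 drives exit from the node, S1pr2 confines germinal center B cells to the follicle center, and Cxcr4, the receptor for Cxcl12, places cells in the dark zone and keeps plasma cells in bone marrow. Ccr6 senses Ccl20, Ccr9 senses Ccl25 of the small intestine, and Ccr10 senses Ccl27 and Ccl28 of skin and mucosa.

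Reads in regions totaled 4104875 to 6079018 in nB, 907959 to 2280954 in GCB and 5357687 to 8232313 in BMPC libraries, so that 3 reads, taken as the floor, amounted to 0.364 to 3.30 RPPM. The floor concerns counting error only, whereas the SDs and SEs given below describe the spread between libraries. At the starts of the B cell markers Ms4a1, Cd79a, Cd22, Fcer2a and Pax5, C nB averaged 80.2, 38.0, 20.2, 42.4 and 40.3 RPPM, C GCB 85.7, 27.9, 9.35, 14.3 and 24.3, and C BMPC 13.4, 14.3, 1.78, 1.20 and 2.84. Of the germinal center markers, Bcl6 averaged 53.8, 20.0 and 30.0 RPPM in C nB, C GCB and C BMPC, Fas 15.3, 20.6 and 31.2 and Mef2b 12.2, 21.5 and 19.3, so that Bcl6 was lowest in GCB and Fas highest in BMPC. Of the plasma cell markers, Tnfrsf17 averaged 0.392, 1.35 and 20.0 RPPM in the same order, Prdm1 44.5, 31.2 and 65.6, Xbp1 60.8, 40.6 and 75.5 and Sdc1, at its nearest region, 9.73, 5.90 and 13.5, all highest in BMPC, whereas Irf4, at 57.4, 41.1 and 44.1, was highest in nB. Of the T cell markers, Cd3g and Cd8a had no region, Cd3e averaged 3.02, 0.660 and 0.538 RPPM and Cd4 0.867, 11.3 and 15.9, each at a region over 5 kb from the start, Lck 13.4, 10.2 and 17.9 and Cd28 2.60, 5.23 and 27.8. Of the myeloid markers, Lyz2 had no region, Itgam averaged 4.04, 1.13 and 1.13 RPPM and Cd14 10.2, 12.2 and 20.2, and the nearest regions of Csf1r, Elane and Mpo 7.67, 7.25 and 1.91, 5.05, 3.15 and 7.32, and 3.16, 1.11 and 0.425; the part of such cells in the results was not tested. Regions at the starts of Dnmt3a and Dnmt3b, outside the deleted exons, ranged from 10.5 to 28 and from 19.6 to 45.7 RPPM with overlap between C and KO, which does not check the deletion.

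Most receptor regions lay away from promoters. By the table's annotation, 93 of the 141 were outside genes, 28 in introns, 7 in exons and 13 at promoters, a promoter share of 9.22% against 21.7% of all regions, and 38 lay over 50 kb from the start. Neighbouring genes limit some of these assignments. Gpr183 lies within Ubac2, the annotated Ccr9 gene overlaps Slc6a20a and Lztfl1 and 4 of its 9 regions lie nearer to the start of Lztfl1, and the single Ccr10 region sits where Cntnap1 and Ccr10 overlap. The Cxcr5 region 39.0 kb upstream lies about midway to Ddx6, 39.0 kb from the Cxcr5 start and 39.1 kb from that of Ddx6. All coordinates are mm9.

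A set of 7 regions outside genes is shown by their central 300 bases, because they carry the cell type patterns and the single genotype difference described after them. Capitals mark matches, on either strand, to short core motifs of factors active in B cells: CAGCTG for E2A, GGAAGT for PU.1, GAANNGAAA for paired ETS and IRF factors, CCCNNGGGA for EBF1, ATGCAAAT for Oct-2, TGTTTAC for FOXO, TGANTCA for AP-1, GGGANTTCC for NF-kappaB, GGGTGTGG for KLF and CCANNAGG for CTCF. The first pair had its highest accessibility in GCB, from chr9:20784400-20784699 upstream of S1pr2 and from chr1:130479918-130480217 downstream of Cxcr4.
S1pr2 3.09 kb upstream: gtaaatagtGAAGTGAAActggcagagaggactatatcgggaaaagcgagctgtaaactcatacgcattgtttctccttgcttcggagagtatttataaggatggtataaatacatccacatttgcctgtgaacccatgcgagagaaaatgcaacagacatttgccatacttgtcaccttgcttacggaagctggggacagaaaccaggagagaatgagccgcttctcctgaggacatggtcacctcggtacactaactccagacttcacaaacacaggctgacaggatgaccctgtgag
Cxcr4 8.47 kb downstream: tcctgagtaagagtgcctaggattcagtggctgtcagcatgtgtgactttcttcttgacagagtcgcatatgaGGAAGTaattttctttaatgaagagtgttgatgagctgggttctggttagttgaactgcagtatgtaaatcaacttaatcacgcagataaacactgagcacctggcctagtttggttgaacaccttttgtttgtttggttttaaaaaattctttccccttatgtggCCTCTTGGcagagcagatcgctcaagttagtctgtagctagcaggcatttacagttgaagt

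The next pair had its highest accessibility in BMPC, from chr1:130426470-130426769 near Cxcr4 and from chr3:115257052-115257351 near S1pr1. The S1pr1 window holds a match to GGAAGT that overlaps one to GAANNGAAA.
Cxcr4 61.7 kb downstream: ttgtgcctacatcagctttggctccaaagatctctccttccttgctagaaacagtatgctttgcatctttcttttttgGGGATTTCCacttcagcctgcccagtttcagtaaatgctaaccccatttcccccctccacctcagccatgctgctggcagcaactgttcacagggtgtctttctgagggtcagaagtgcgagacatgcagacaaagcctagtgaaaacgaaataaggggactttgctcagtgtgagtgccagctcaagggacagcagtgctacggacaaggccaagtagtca
S1pr1 160.3 kb downstream: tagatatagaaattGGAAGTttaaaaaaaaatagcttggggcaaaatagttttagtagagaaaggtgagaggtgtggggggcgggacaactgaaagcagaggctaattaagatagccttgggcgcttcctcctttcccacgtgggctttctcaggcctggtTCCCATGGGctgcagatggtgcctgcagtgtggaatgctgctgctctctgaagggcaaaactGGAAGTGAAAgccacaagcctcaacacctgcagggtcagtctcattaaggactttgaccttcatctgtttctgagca

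The last 3 had their highest accessibility in nB, from chr11:98997714-98998013 near Ccr7 and from chr9:44341245-44341544 and chr9:44373521-44373820 near Cxcr5. The Cxcr5 region 39.0 kb upstream is the one that was higher in KO than in C BMPC, and its window holds 5 CpG dinucleotides, the bases that Dnmt3a and Dnmt3b methylate, against a median of 5 in windows of all regions and 4 in those of the receptor regions.
Ccr7 18.3 kb downstream: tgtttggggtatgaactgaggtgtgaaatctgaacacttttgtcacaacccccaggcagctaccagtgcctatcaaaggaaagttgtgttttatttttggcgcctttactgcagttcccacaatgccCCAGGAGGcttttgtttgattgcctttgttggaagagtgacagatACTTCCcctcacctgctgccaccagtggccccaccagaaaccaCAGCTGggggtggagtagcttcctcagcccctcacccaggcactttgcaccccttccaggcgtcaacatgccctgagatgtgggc
Cxcr5 6.56 kb upstream: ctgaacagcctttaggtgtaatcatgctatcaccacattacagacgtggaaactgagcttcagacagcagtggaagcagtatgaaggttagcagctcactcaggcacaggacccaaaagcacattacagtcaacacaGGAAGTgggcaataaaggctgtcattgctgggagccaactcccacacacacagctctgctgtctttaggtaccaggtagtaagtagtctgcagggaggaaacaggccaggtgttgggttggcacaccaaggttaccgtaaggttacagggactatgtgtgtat
Cxcr5 39.0 kb upstream: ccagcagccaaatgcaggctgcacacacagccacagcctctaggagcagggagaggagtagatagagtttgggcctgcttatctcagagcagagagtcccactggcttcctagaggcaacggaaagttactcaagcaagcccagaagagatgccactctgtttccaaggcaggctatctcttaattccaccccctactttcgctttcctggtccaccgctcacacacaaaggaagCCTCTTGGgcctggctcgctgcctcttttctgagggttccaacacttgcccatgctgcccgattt

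Receptor regions lost accessibility more often than they gained it from nB to plasma cells. Regions counted as called had an adjusted p up to 0.01, from limma on log2(RPPM + 1) with Benjamini-Hochberg adjustment over all regions, together with a log2 fold change of at least 1 in size; all fold changes are on that scale, which understates changes of low regions. In C BMPC against C nB, 59 of the 141 regions were lower, or 41.8%, against a background of 20.1% of all regions, and 28 were higher, or 19.9%, against 18.0%. In C GCB against C nB, 34 were lower (24.1%, background 8.47%) and 17 higher (12.1%, background 14.2%). In C BMPC against C GCB, 42 were lower (29.8%, background 19.1%) and 17 higher (12.1%, background 11.3%), a split that quantile normalization changed to 36 lower and 23 higher. The median log2 fold change of the receptor regions was -0.68 in BMPC against nB and -0.24 in GCB against nB, beside 0.03 and 0.05 over all regions. These shares describe the list and were not tested against other lists.

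**Figure D1:**
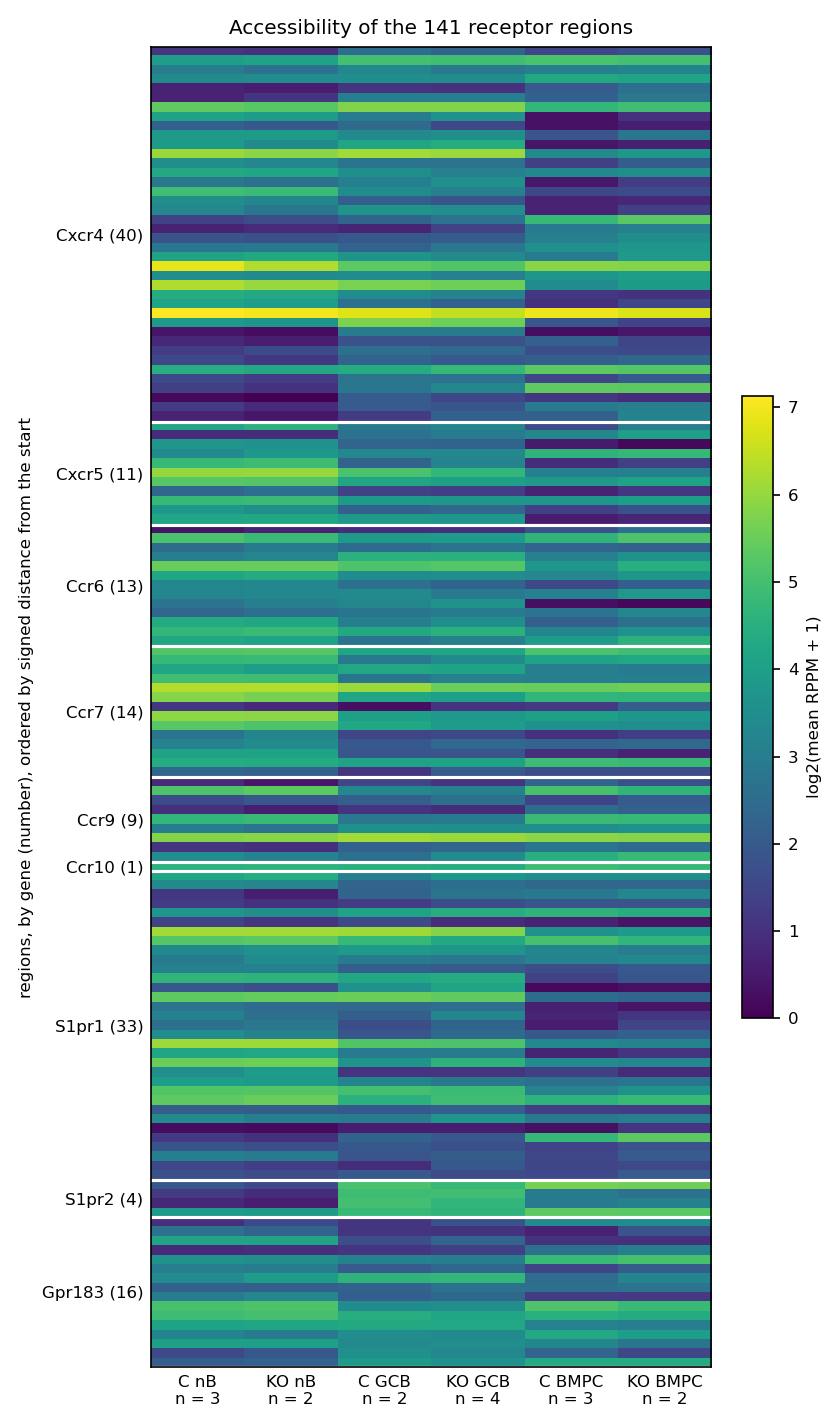
Heat map of log2(mean RPPM + 1) for the 141 receptor regions (rows, grouped by gene and ordered by signed distance from the start) in the 6 groups (columns, with the number of libraries). Adjacent C and KO columns resemble each other, whereas columns of different cell types differ, as at the 3 regions upstream of S1pr2, which are near 0 in nB and high in GCB.

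The receptors divided by direction. All 11 Cxcr5 regions were called between C BMPC and C nB, 9 of them lower and 2 higher. Ccr7 had 7 of 14 lower and 0 higher, and S1pr1 17 of 33 lower and 2 higher. All 4 S1pr2 regions were higher in BMPC, and Ccr9 had 4 of 9 higher and 0 lower. Except for the one 1.73 kb downstream of a listed Ccr9 start, these higher Ccr9 regions lie nearer to the start of Lztfl1. Cxcr4 went both ways with 16 of 40 lower and 10 higher, as did Gpr183 with 5 of 16 in each direction, while Ccr6 had 5 of 13 lower and 1 higher. Of the 107 regions called in at least 1 comparison of C cell types, 56 had their highest mean in nB, 23 in GCB and 28 in BMPC.

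**Figure D2:**
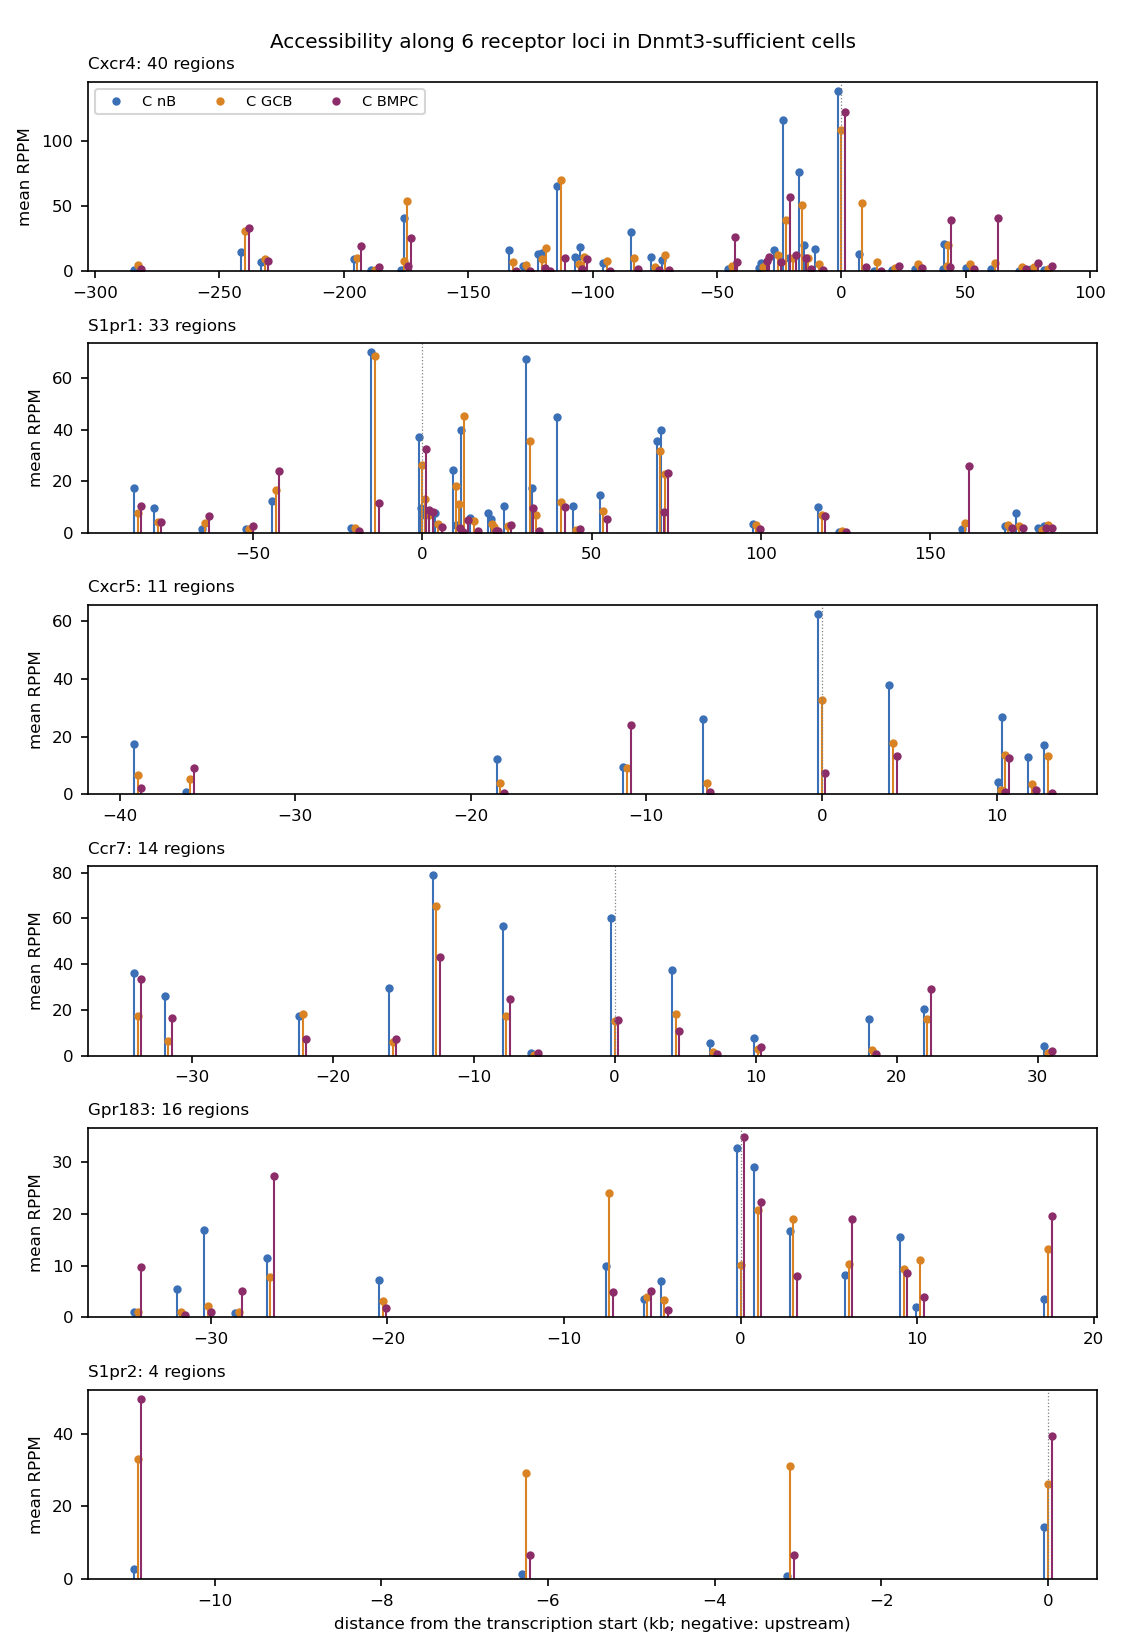
Mean RPPM of each region against its distance from the transcription start in kb, for 6 receptor loci in Dnmt3-sufficient nB, GCB and BMPC (stems, slightly offset by cell type). The 4 S1pr2 regions are lowest in nB, and the Cxcr4 and S1pr1 loci hold regions seen mainly in BMPC at 61.7 kb and 160.3 kb downstream.

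The receptors of the follicle and T cell zone, Cxcr5 and Ccr7, were most accessible in nB. At the Cxcr5 promoter (chr9:44334256-44334957), C nB libraries read 62.1, 58.4 and 67.4 RPPM, C GCB libraries 33.4 and 31.9 and C BMPC libraries 9.36, 5.11 and 7.63. The 3 cell types did not overlap, in the order nB, GCB, BMPC. The promoter was lower in BMPC than in nB (log2 fold change -2.96, SE 0.17, adjusted p = 4.56e-14) and than in GCB (log2 fold change -2.04, SE 0.19, adjusted p = 1.26e-09). Between GCB and nB it differed by less than the fold limit (log2 fold change -0.92, SE 0.19, adjusted p = 3.47e-04). KO libraries followed the same order, with means of 63.3, 25.6 and 7.45 RPPM. In KO the fall from nB to GCB was called (log2 fold change -1.28, SE 0.18, adjusted p = 2.01e-06).

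The Cxcr5 region 6.56 kb upstream of the start (chr9:44341086-44341702), whose sequence is given above, was highest in nB. It held 33.9, 21.7 and 23.1 RPPM in C nB, 5.72 and 1.87 in C GCB and 1.43, 0.365 and 0.934 in C BMPC. In KO the values were 29.3 and 27.7 in nB, 14.3, 5.73, 5.26 and 6.99 in GCB and 2.19 and 0.933 in BMPC, so that nB libraries of both genotypes were above all others and 1 KO GCB library, with 13 reads, stood above the remaining GCB libraries. It was lower in C GCB than in C nB (log2 fold change -2.60, SE 0.37, adjusted p = 2.24e-06) and in C BMPC than in C nB (log2 fold change -3.84, SE 0.33, adjusted p = 1.01e-10). Against the trend of the locus, the region 11.1 kb upstream (chr9:44345619-44346512) was higher in BMPC, at 24.1 ± 2.45 RPPM (SD, n = 3), than in nB, at 9.39 ± 2.90 RPPM (SD, n = 3). The region 36.0 kb upstream (chr9:44370524-44371244) rose as well, from 0.867 RPPM in C nB to 5.44 in C GCB and 9.10 in C BMPC; both were named after their values were seen.

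At the Ccr7 promoter (chr11:99016180-99016953), C nB libraries read 57.0, 64.1 and 59.0 RPPM, C GCB libraries 12.8 and 17.8 and C BMPC libraries 16.5, 15.3 and 15.4. GCB and BMPC overlapped each other and both lay below nB. The log2 fold change was -1.92 in GCB against nB (SE 0.19, adjusted p = 7.38e-09) and -1.86 in BMPC against nB (SE 0.17, adjusted p = 4.16e-10). The same loss from nB was seen at 18.3 kb downstream (chr11:98997615-98998112), with means of 16.2, 2.74 and 0.946 RPPM in C nB, C GCB and C BMPC. It was also seen 15.7 kb upstream (chr11:99032128-99032651), with 29.6, 5.85 and 7.25 RPPM. In all, 9 of the 14 Ccr7 regions were lower in C GCB than in C nB and none higher. The region with the highest values of the locus, 12.6 kb upstream (chr11:99029037-99029919), was not called between C cell types, with 78.8, 65.2 and 43.2 RPPM.

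Gpr183, the oxysterol receptor, differed from Cxcr5 and Ccr7 in that its promoter was low in GCB and not in BMPC. The promoter (chr14:122364169-122365135) held 34.1, 31.3 and 32.4 RPPM in C nB, 11.9 and 8.43 in C GCB and 28.5, 39.0 and 36.7 in C BMPC. GCB libraries lay below all others, and nB and BMPC overlapped. It was lower in GCB than in nB (log2 fold change -1.61, SE 0.20, adjusted p = 2.64e-07) and higher in BMPC than in GCB (log2 fold change 1.69, SE 0.20, adjusted p = 6.53e-08), and the difference of BMPC from nB was not called (log2 fold change 0.08, SE 0.18, adjusted p = 0.732). The intronic region 7.43 kb upstream (chr14:122371848-122372655) was highest in GCB, with 9.96, 23.9 and 4.84 RPPM; its call in GCB against nB (log2 fold change 1.18, adjusted p = 3.69e-05) fell below the fold limit without C GCB replicate 1 (0.96). Farther upstream, 30.2 kb from the start (chr14:122394596-122395108), accessibility was highest in nB, with 17.5, 15.3 and 17.5 RPPM in C nB and means of 2.28 in C GCB and 1.07 in C BMPC.

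S1pr2, the receptor that confines germinal center B cells, gained accessibility over the whole locus. The region 3.09 kb upstream (chr9:20784330-20784768), between S1pr2 and its upstream neighbour, held 1.22, 0.188 and 0.931 RPPM in C nB, 32.5 and 29.5 in C GCB and 7.15, 6.20 and 6.70 in C BMPC. It was at or below 5 reads in each nB library, and the 3 cell types did not overlap. The log2 fold change of GCB over nB was 4.22 (SE 0.27, adjusted p = 2.17e-12), that of BMPC over nB 2.16 (SE 0.24, adjusted p = 1.69e-08), and that of BMPC over GCB -2.06 (SE 0.27, adjusted p = 4.32e-07). A neighbouring region 6.26 kb upstream (chr9:20787501-20788130) had the same order, with 29.3 ± 0.302 RPPM (SD, n = 2) in C GCB, 1.32 in C nB and 6.61 in C BMPC.

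The remaining S1pr2 regions were highest in BMPC. The region 10.9 kb upstream (chr9:20792164-20793116) read 2.68, 3.20 and 2.61 RPPM in C nB, 31.7 and 34.7 in C GCB and 45.4, 54.7 and 49.0 in C BMPC, higher in both than in nB (log2 fold change 3.16 and 3.73, adjusted p = 4.13e-12 and 3.31e-15). GCB and BMPC did not overlap there, but their difference of 0.57 was not called (adjusted p = 0.0268). The promoter (chr9:20780181-20781623) rose from 14.4 ± 1.80 RPPM (SD, n = 3) in C nB to 39.3 ± 1.44 RPPM (SD, n = 3) in C BMPC (adjusted p = 3.52e-07), with 26.2 in C GCB.

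S1pr1, the exit receptor, had no called difference at its promoter between C cell types, while 17 of its 33 regions were lower in C BMPC than in C nB. The promoter (chr3:115417508-115418593) held 33.1, 41.6 and 36.7 RPPM in C nB, 29.0 and 23.4 in C GCB and 31.7, 32.8 and 32.2 in C BMPC. In KO the promoter was called lower in GCB than in nB (log2 fold change -1.05, SE 0.19, adjusted p = 5.61e-05). No C comparison of it was called, and the log2 fold change of C BMPC over C nB was -0.19 (SE 0.18). In contrast, the region 13.9 kb upstream (chr3:115431917-115432778) fell from 65.5, 72.5 and 72.0 RPPM in C nB and 68.2 and 68.9 in C GCB to 13.3, 9.12 and 11.7 in C BMPC. The nB and GCB libraries overlapped and BMPC lay far below them (log2 fold change -2.54, SE 0.13, adjusted p = 3.58e-15 against nB). The region 12.4 kb downstream (chr3:115404909-115405586) did the same, with means of 40.0, 45.4 and 4.79 RPPM.

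Other S1pr1 regions had different patterns. The region 40.9 kb downstream (chr3:115375882-115377049) was highest in nB among C cells, with 51.9, 42.6 and 40.6 RPPM in C nB, 11.4 and 12.2 in C GCB and 11.1, 8.21 and 10.3 in C BMPC (log2 fold change -1.84, SE 0.19, adjusted p = 1.77e-08 in GCB against nB). The region 160.3 kb downstream (chr3:115256731-115257671), with the paired ETS and IRF match printed above, went the other way, with 0.487, 1.88 and 1.49 RPPM in C nB, 4.40 and 3.28 in C GCB and 26.9, 25.4 and 25.5 in C BMPC. BMPC libraries stood above all others there (log2 fold change 3.61, SE 0.28, adjusted p = 1.54e-11 against nB). No gene start lies closer to it than that of S1pr1 by the table, though at this distance the assignment rests on proximity alone.

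**Figure D3:**
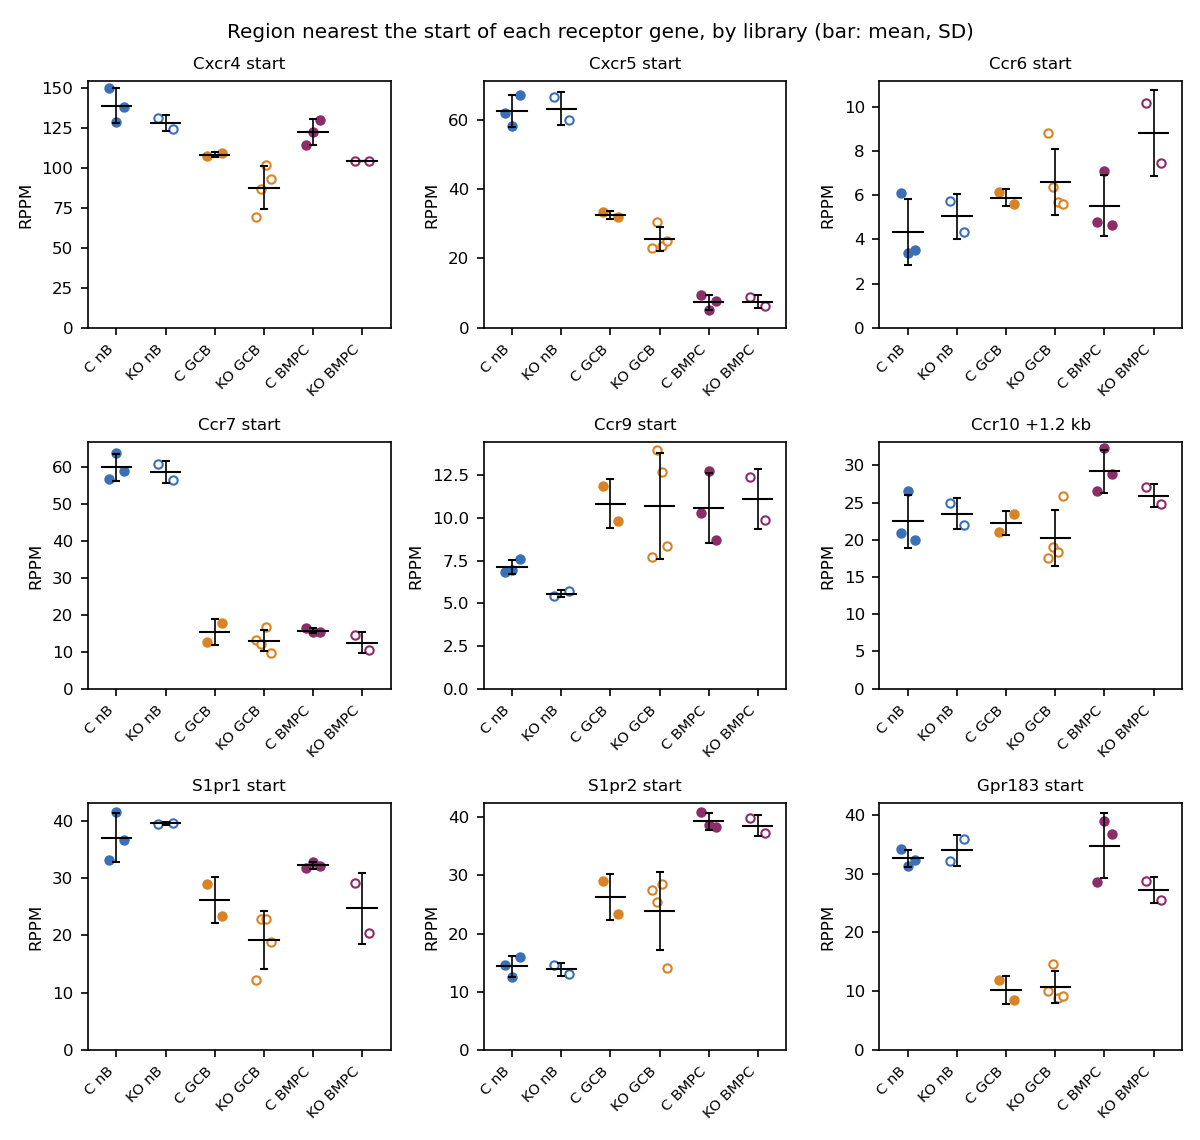
RPPM of each library at the region nearest the start of each of the 9 receptor genes, by group (filled points C, hollow points KO, bar the mean, whiskers the SD). Cxcr5 steps down from nB to GCB to BMPC, Ccr7 is highest in nB, Gpr183 is lowest in GCB, S1pr2 rises in BMPC, and Cxcr4 stays above 69 RPPM in every library.

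Cxcr4, which serves both the dark zone and bone marrow retention, had the most regions and kept its promoter accessible in every group. The promoter (chr1:130487289-130489457) held 150.3, 129 and 139 RPPM in C nB, 107 and 109.6 in C GCB and 114, 123 and 130.5 in C BMPC, and none of the 3 C comparisons was called. Distal regions differed more. The region 8.47 kb downstream (chr1:130479737-130480398) was highest in GCB, with 14.6, 12.4 and 13.2 RPPM in C nB, 46.2 and 58.1 in C GCB and 3.38, 2.92 and 2.18 in C BMPC. The 3 cell types did not overlap, and the log2 fold change was 1.88 for GCB over nB (SE 0.21, adjusted p = 4.70e-08) and -3.80 for BMPC over GCB (SE 0.21, adjusted p = 4.35e-14). A weaker region 14.6 kb downstream (chr1:130474123-130474304) was seen mainly in GCB, at 5.28 and 7.96 RPPM in C GCB and at most 0.974 in C nB and C BMPC.

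Regions with the reverse bias, highest in BMPC, lay on both sides of Cxcr4. The region 61.7 kb downstream (chr1:130426072-130427167) read 2.19, 1.70 and 0.744 RPPM in C nB, 5.72 and 6.09 in C GCB and 39.7, 37.8 and 46.1 in C BMPC (log2 fold change 4.09, SE 0.29, adjusted p = 1.65e-12 in BMPC against nB). The region 44.1 kb upstream (chr1:130533000-130534011) read 1.46, 1.70 and 1.86, 3.96 and 3.75 and 30.0, 22.6 and 26.0 RPPM in the same groups (log2 fold change 3.34, SE 0.26, adjusted p = 1.52e-11). In both, BMPC lay above every nB and GCB library. Other regions closed in BMPC: 15.6 kb upstream (chr1:130504500-130505156), the level went from 76.7 ± 7.39 RPPM (SD, n = 3) in C nB and 51.0 in C GCB to 9.93 in C BMPC (log2 fold change -2.84, SE 0.16, adjusted p = 2.44e-14 against nB). At 22.1 kb upstream (chr1:130510954-130512372), nB was highest, with 116, 39.7 and 56.9 RPPM. The fall in GCB there was called (log2 fold change -1.53, adjusted p = 2.47e-08). The fall in BMPC of -1.03 was just past the fold limit and inside it without C nB replicate 1 (-0.94), C BMPC replicate 1 (-0.95) or C BMPC replicate 2 (-0.94).

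**Figure D4:**
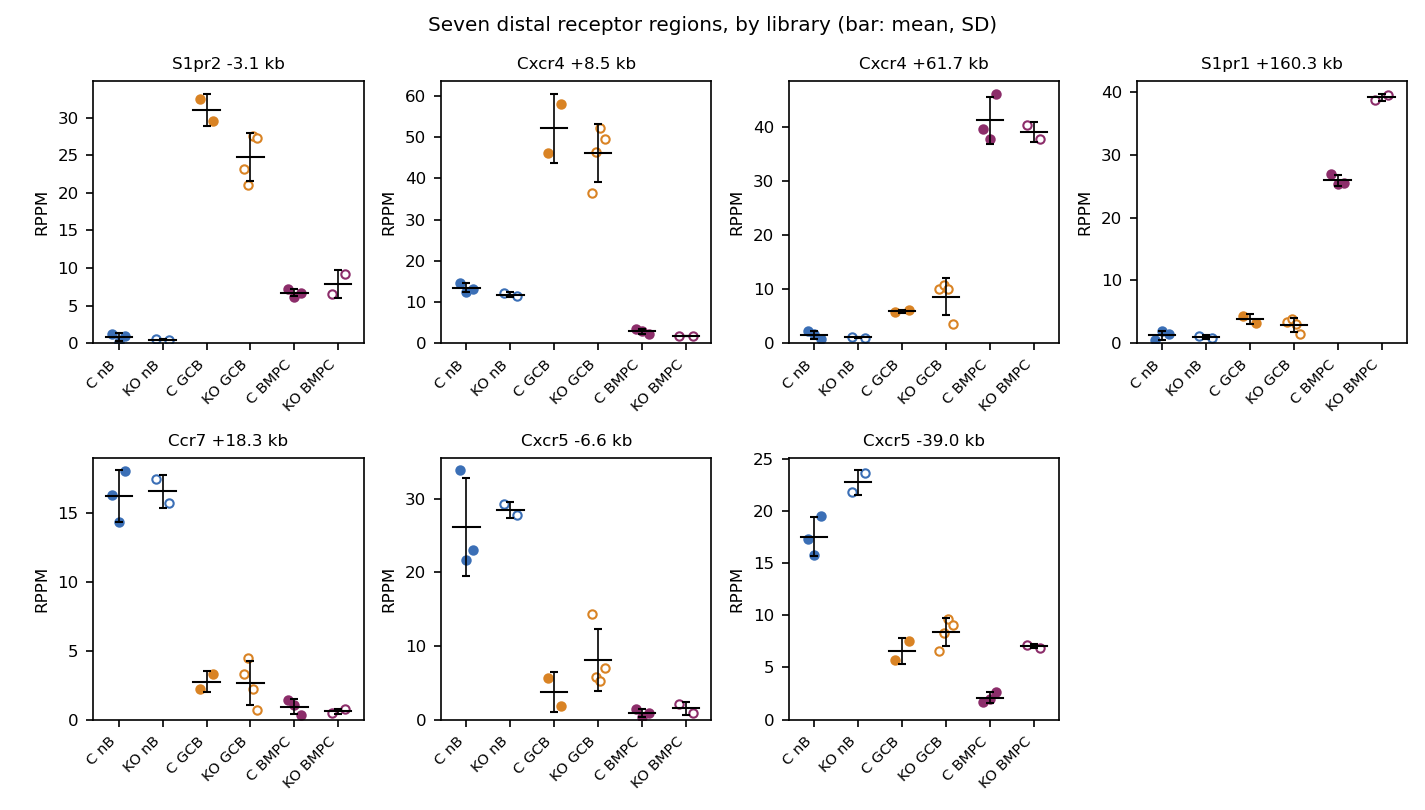
RPPM of each library at the 7 distal regions whose sequences are printed, by group (filled points C, hollow points KO, bar the mean, whiskers the SD). S1pr2 3.09 kb upstream and Cxcr4 8.47 kb downstream peak in GCB. Cxcr4 61.7 kb and S1pr1 160.3 kb downstream peak in BMPC, and the Ccr7 and Cxcr5 regions peak in nB. KO exceeds C in BMPC without overlap at Cxcr5 39.0 kb upstream, which was called, and at S1pr1 160.3 kb downstream, which was not. C exceeds KO in BMPC without overlap at Cxcr4 8.47 kb downstream, which was not called.

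Ccr6, the Ccl20 receptor, held a small start region with 4.34, 5.89 and 5.53 RPPM in C nB, C GCB and C BMPC (chr17:8435066-8435504), which was not called; its gene has 4 annotated starts. The other Ccr6 regions chosen by the naming rule lay upstream. Changes were not limited to them. A region inside the gene (chr17:8437705-8437931) held 22, 24 and 36 reads in C nB and 5, 0 and 0 in C BMPC. The region 9.85 kb upstream (chr17:8418009-8419061) held 50.7, 38.8 and 39.6 RPPM in C nB, 37.8 and 31.4 in C GCB and 10.7, 14.6 and 12.5 in C BMPC, and BMPC was below both (log2 fold change -1.70, SE 0.16, adjusted p = 7.20e-10 against nB). The region 12.2 kb upstream (chr17:8416137-8416694) was highest in GCB, with 22.4 and 23.0 RPPM in C GCB against 5.36, 8.67 and 8.0 in C nB and 6.76, 9.31 and 6.85 in C BMPC (log2 fold change 1.53, SE 0.22, adjusted p = 3.15e-06 for GCB over nB).

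Of the gut and mucosal homing receptors, Ccr9 had 2 of 9 regions lower in C GCB than in C nB and Ccr10 showed no called difference. The Ccr9 region 12.2 kb upstream of its nearest listed start (chr9:123663311-123664109), in an intron of the long transcript, held 30.7, 36.5 and 36.5 RPPM in C nB, 8.80 and 9.37 in C GCB and 31.7, 38.1 and 27.1 in C BMPC. GCB lay below both other types, which overlapped (log2 fold change -1.82, SE 0.18, adjusted p = 3.83e-09 for GCB over nB). The region 1.73 kb downstream of that start (chr9:123678062-123679054), exonic by the table, was highest in BMPC, with 23.3, 21.9 and 19.6 RPPM against 10.2, 11.7 and 8.93 in C nB and 6.16 and 4.22 in C GCB. Its log2 fold change of 1.01 over nB (adjusted p = 9.27e-05) was just past the limit and below it without C nB replicate 3 (0.92) or C BMPC replicate 1 (0.95) and just below it without C BMPC replicate 2. The region at the start of the annotated Ccr9 gene, which is also at the start of Slc6a20a (chr9:123587191-123588226), had 7.14, 10.9 and 10.6 RPPM and was not called. The single Ccr10 region (chr11:101035004-101035542) had 21.0, 26.6 and 19.9 RPPM in C nB, 21.1 and 23.4 in C GCB and 26.5, 32.3 and 28.8 in C BMPC, with nB overlapping both other cell types and a log2 fold change of 0.37 for BMPC over nB (adjusted p = 0.0494).

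Cell types were compared in the same way without Dnmt3a and Dnmt3b. In KO GCB against KO nB, 18 receptor regions were higher and 35 lower, beside backgrounds of 18.4% and 7.84% of all regions. In KO BMPC against KO nB, 27 were higher and 49 lower, beside 18.4% and 16.9%. In KO BMPC against KO GCB, 22 were higher and 33 lower, beside 12.1% and 19.9%. Of the 87 regions called in C BMPC against C nB, 73 were called in the same direction in KO, which was 83.9% of the C calls and 96.1% of the 76 KO calls, and none went in the opposite direction. For GCB against nB the overlap was 37 regions, 72.5% of the 51 C calls and 69.8% of the 53 KO calls. These shares count calls, and whether a change was larger in one genotype was tested separately. The same overlap was not counted over all regions, so it has no background here and cannot be called particular to the receptors. At S1pr2 3.09 kb upstream, for instance, KO nB libraries read 0.494 and 0.394 RPPM, KO GCB libraries 23.1, 21.0, 27.6 and 27.3 and KO BMPC libraries 6.56 and 9.15.

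Differences between KO and C within a cell type were few at the receptors. In nB, 0 of 141 regions were called by limma, beside 0.0% of all regions higher and 0.0% lower, and 3 (2.13%) had an unadjusted p under 0.05, beside 1.67% of all regions. In GCB, 0 were called, beside 0.0317% of all regions higher and 0.0% lower, and 19 (13.5%) had an unadjusted p under 0.05, beside 11.8% of all regions. Both edgeR tests (quasi-likelihood and likelihood ratio) and DESeq2 called 0 receptor regions too, in nB and in GCB. In BMPC, 1 receptor region was higher in KO and 0 were lower, beside 0.0907% of all regions higher and 0.0136% lower. At an unadjusted p under 0.05 were 22 receptor regions in BMPC (15.6%), beside 9.55% of all regions. Of these 22, 18 were higher in KO. The calls over all regions leaned the same way, with 60 higher and 9 lower.

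The region called in BMPC lay 39.0 kb upstream of Cxcr5 at chr9:44373510-44373831, outside genes and nearly as close to the start of Ddx6 (39.1 kb) as to that of Cxcr5. C BMPC libraries read 1.69, 2.01 and 2.65 RPPM and KO BMPC libraries 7.17 and 6.91, which did not overlap (log2 fold change 1.38, SE 0.24, adjusted p = 0.00507). In nB the same region read 17.3, 15.8 and 19.5 RPPM in C and 21.9 and 23.6 in KO, and in GCB 5.72 and 7.49 in C and 6.61, 8.27, 9.65 and 9.09 in KO. It thus fell from nB to BMPC in both genotypes, by 2.58 on the log2 scale in C and by 1.56 in KO, and KO BMPC lay within the range of the GCB libraries. No genotype difference between cell types was called for any receptor region.

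The call of this Cxcr5 region rests on few libraries. Its adjusted p was 0.102 without KO BMPC replicate 1, 0.152 without KO BMPC replicate 2, and 0.0135, 0.0280 and 0.0123 without C BMPC replicate 1, 2 or 3. It was 0.0103 without C nB replicate 3, 0.0112 without KO nB replicate 1 and 0.0113 without KO nB replicate 2, since all libraries share 1 estimate of spread. Tests of the whole reads gave adjusted p = 4.36e-05 with edgeR's quasi-likelihood test and 9.71e-05 with DESeq2. Of the B cell markers, Ms4a1 read 11.7 to 14.6 RPPM in C BMPC and 16.2 to 16.6 in KO BMPC, Cd79a 12.6 to 15.9 and 11.1 to 11.6, Cd22 1.64 to 1.87 and 0.373 to 1.94, Fcer2a 0.365 to 2.34 and 0.560 to 0.972, and Pax5 2.02 to 3.77 and 2.05 to 3.89. Their part in the result was not tested. The Cxcr5 promoter was not called, with 9.36, 5.11 and 7.63 RPPM in C BMPC and 8.75 and 6.16 in KO BMPC (log2 fold change 0.03).

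**Figure D5:**
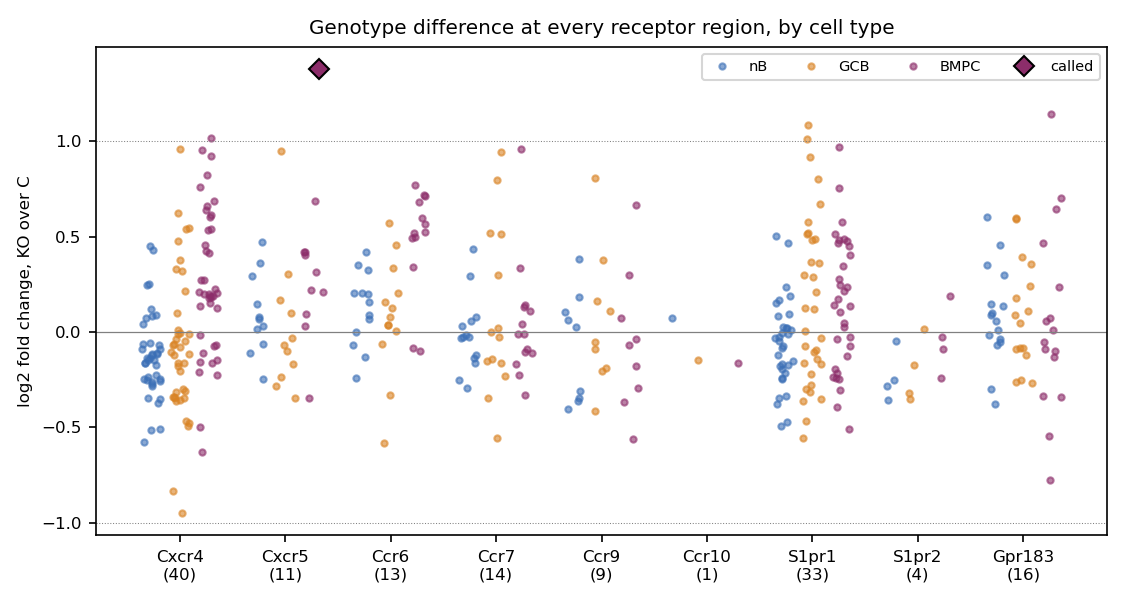
Log2 fold change of KO over C at every receptor region, by gene (number of regions) and cell type (color), with dotted lines at 1 and -1. The diamond is the single called region, Cxcr5 39.0 kb upstream in BMPC at 1.38, and points of nB lie nearest to 0.

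Interaction terms compared the genotype difference between cell types. By limma, 0 of 141 receptor regions and 0.0% of all regions were called for GCB against nB, for BMPC against nB and for BMPC against GCB, and 10, 16 and 18 receptor regions (7.09%, 11.3% and 12.8%) had an unadjusted p under 0.05, beside 6.21%, 5.24% and 8.32% of all regions. The edgeR and DESeq2 tests also called 0.

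Beyond the called region, several receptor regions showed groups that did not overlap but missed the limits. With so few libraries, groups can separate without a difference, and how many of all regions did so was not counted. At S1pr1 40.9 kb downstream, C GCB read 11.4 and 12.2 RPPM and KO GCB 25.3, 21.6, 23.7 and 22.4 (log2 fold change 0.92, SE 0.18, adjusted p = 0.0314). At Ccr7 12.6 kb upstream, C GCB read 61.6 and 68.9 RPPM and KO GCB 45.2, 42.0, 49.5 and 39.8 (log2 fold change -0.56, SE 0.11, adjusted p = 0.0380). Both were chosen after their values were seen, as the receptor regions with the smallest adjusted p in GCB. In BMPC, Cxcr4 25.5 kb upstream (chr1:130514361-130514776) read 8.06, 4.20 and 7.79 RPPM in C and 14.2 and 12.7 in KO (log2 fold change 0.95, SE 0.24, adjusted p = 0.0528). Ccr6 9.85 kb upstream read 10.7, 14.6 and 12.5 RPPM in C and 20.4 and 22.0 in KO (log2 fold change 0.72, SE 0.18, adjusted p = 0.0537), and S1pr1 160.3 kb downstream read 26.9, 25.4 and 25.5 in C and 38.7 and 39.6 in KO (log2 fold change 0.58, SE 0.32, adjusted p = 0.620).

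For the other receptors, the region with the smallest p in BMPC was likewise not called. It was Gpr183 7.43 kb upstream, with 4.42, 5.11 and 4.98 RPPM in C and 8.99 and 8.03 in KO (log2 fold change 0.70, SE 0.20, adjusted p = 0.109), and Ccr9 12.2 kb upstream, with 31.7, 38.1 and 27.1 in C and 24.4 and 24.8 in KO (adjusted p = 0.509). The S1pr2 region 6.26 kb upstream, the Ccr7 region 5.71 kb upstream (chr11:99022100-99022298) and the S1pr1 region 21.3 kb downstream (chr3:115396420-115396670) had means of 6.61, 1.33 and 0.459 RPPM in C and 5.41, 3.47 and 1.81 in KO (adjusted p = 0.944, 0.265 and 0.269). Across all receptor regions, 63.1% had a log2 fold change above 0 in KO over C BMPC, against 54.2% of all regions. This was the case for 29 of 40 regions of Cxcr4, 10 of 11 of Cxcr5, 11 of 13 of Ccr6 and 21 of 33 of S1pr1, with median log2 fold changes of 0.20, 0.32, 0.52 and 0.14. It was the case for 6 of 14 regions of Ccr7, 3 of 9 of Ccr9, 1 of 4 of S1pr2 and 8 of 16 of Gpr183, with medians of -0.01, -0.07, -0.06 and -0.02, and the Ccr10 region was at -0.16. The share of 63.1% depended on the scaling. It was 58.9% with TMM scaling, quantile normalization or edgeR's quasi-likelihood test and 61% with DESeq2. The share of all regions was not counted under these alternatives.

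The likelihood ratio test of edgeR, run on whole reads, called the Cxcr5 region 39.0 kb upstream and 3 more receptor regions in BMPC, all higher in KO. These calls were among 141 receptor regions, beside 2.01% of all regions higher by that test. The 3 further regions were Cxcr4 83.1 kb downstream (chr1:130405111-130405747), with 3.77, 2.37 and 4.52 RPPM in C and 8.62 and 7.47 in KO, Cxcr4 120.5 kb upstream (chr1:130609343-130609890), with 2.34, 2.37 and 3.27 and 6.44 and 5.41, and Gpr183 31.7 kb upstream (chr14:122396106-122396367), with 0.650, 0.730 and 0.311 and 1.70 and 3.36. None of these 3 was called under the other 25 alternatives.

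Core motifs were counted in the central windows of the receptor regions and of all regions. PU.1 cores stood in 33.3% of the 141 central windows and 30.3% of 65893 windows of all regions, E2A cores in 21.3% and 20.6%, ETS and IRF pairs in 19.1% and 13.5%, and AP-1 cores in 7.80% and 9.18%. Among receptor regions highest in nB, 23 of 56 windows held a PU.1 core, against 8 of 23 highest in GCB and 7 of 28 highest in BMPC. In the same order, AP-1 cores stood in 7, 3 and 0 windows, E2A cores in 11, 5 and 8, ETS and IRF pairs in 12, 4 and 3 and CTCF cores in 15, 7 and 2. EBF1, Oct-2, FOXO, NF-kappaB, KLF and CTCF cores stood in 9, 5, 6, 3, 3 and 30 of the 141 windows, beside 6.41%, 3.96%, 4.06%, 2.05%, 3.35% and 24.5% of all windows. A match is only the presence of these letters in the window.

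Further genes of the same pathways were described by their counts. Of 127 regions of 22 further receptors, 34 were lower (26.8%) and 20 higher (15.7%) in C BMPC than in C nB, beside 20.1% and 18.0% of all regions. S1pr3, another sphingosine 1-phosphate receptor, had 7 of 11 lower, and Ackr3, a second receptor for Cxcl12, 4 of 7 higher. Ligands and the enzymes that make or break them down had 29 regions at 10 genes. In C BMPC against C nB, 2 were lower (6.9%, background 20.1%) and 0 higher (background 18.0%). In C GCB against C nB, 5 were higher (17.2%, background 14.2%), 4 of them at Cxcl12, and 2 lower (6.9%, background 8.47%). Of 287 regions of 28 genes of signal transduction, 57 were lower and 37 higher in C BMPC against C nB. These were 19.9% and 12.9%, neither above the backgrounds of 20.1% and 18.0%. Of the 9 listed Rgs genes, whose products dampen receptor signals, Rgs1 and Rgs13 had 8 of 14 and 4 of 10 regions higher in C GCB than in C nB and 12 and 9 lower in C BMPC than in C GCB. Rgs3 went the other way, with 5 of 31 regions lower in C GCB than in C nB and 8 higher and 1 lower in C BMPC than in C GCB. Rgs2 had 1 of 7 regions higher in C GCB than in C nB and 5 lower in C BMPC than in C GCB, Rgs10 1 of 11 higher in each comparison, Rgs18 1 of 2 lower in each and Rgs19 1 of 2 lower in the second, and Rgs14 and Rgs16 had none called. Klf2, a transcription factor that drives S1pr1 expression, had 8 of 18 regions lower and 1 higher in C GCB than in C nB, and 6 lower in C BMPC than in C nB. S1pr3, Ackr3 and Klf2 were picked after their values were seen. By limma, 0 regions of these 3 lists were called between KO and C. At an unadjusted p under 0.05 were 0, 1 and 8 regions in nB, 17, 0 and 45 in GCB and 8, 0 and 29 in BMPC, in the order receptors, ligands and signal transduction. These were 0%, 3.45% and 2.79% in nB, 13.4%, 0% and 15.7% in GCB and 6.30%, 0% and 10.1% in BMPC, beside 1.67%, 11.8% and 9.55% of all regions. The other tools made calls in BMPC, with 3, 0 and 7 in edgeR's quasi-likelihood fit, 3, 0 and 10 in its likelihood ratio fit and 0, 0 and 4 in DESeq2, and 0 in nB and GCB. Over all 66177 regions, the 3 fits made 1201, 1677 and 489 calls in BMPC.

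The start regions of other genes most like those of the receptors were found by Pearson's r of log2(RPPM + 1) over the 16 libraries, as a description over libraries that share cell types. The Cxcr5 start was most like those of Ngfr (r = 0.992) and Sorl1 (0.988), Ccr7 like Hist1h2be (0.984) and Hhex (0.973), and Gpr183 like Mapk3 (0.982) and Scamp2 (0.981). S1pr2 was most like regions nearest to Fstl4 (0.977) and Mir3065 (0.969), Cxcr4 like Wnk1 (0.944) and Nuak2 (0.929), and S1pr1 like Rrm1 (0.933) and Prr11 (0.924). For Ccr9, Ccr10 and Ccr6 the highest r was 0.928 (Fgfr4), 0.909 (Cdc37l1) and 0.852 (Clrn3).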

How the data were processed

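ATAC-seq was analysed in 16 libraries of nB, GCB and BMPC, in the 6 groups that the labels define. Per the paper and the submitters' processing notes, the authors mapped reads to mm9 with Bowtie, called accessible regions per sample with MACS2, took their union, left out 1 KO BMPC sample whose number of reads in peaks stood apart per its label, and deposited RPPM, RPM values scaled to the reads in regions. The Bowtie and MACS2 versions differ between these sources. The deposited table also holds the authors' own comparisons, made with edgeR 3.12.1, as log2 fold changes and log2 mean abundances, a likelihood ratio score and p-values, which were not used. Dividing each deposited RPPM value by what 1 read was worth gave whole reads for 100% of values (tolerance 1e-06 reads), which the count tests used.

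Log2(RPPM + 1) was fitted with limma 3.58.1 (R 4.3.3) as 6 group means over all 16 libraries together, with eBayes and a variance trend. P-values were adjusted by Benjamini-Hochberg over 66177 regions, and calls needed an adjusted p up to 0.01 with a fold of at least 2. The fit was tested on simulated data. Alternatives were other pseudocounts, a filter at a mean of 1 RPPM, TMM scaling, quantile normalization, the compared groups only, an adjusted p of at most 0.05, each library left out, the GCB pools as a replicate block, and edgeR 4.0.16 and DESeq2 1.42.0 on whole reads.

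The members and lists were chosen with earlier results of these data known. For each gene the text names the region nearest the start and those with the smallest p for C BMPC against C nB, C GCB against C nB and KO against C in BMPC, plus called genotype differences. Regions named outside this rule were chosen after their values were seen. For Cxcr4 they lay at 8.47, 14.6, 61.7 and 83.1 kb downstream and 44.1 and 120.5 kb upstream. For S1pr1 they lay at 12.4 and 160.3 kb downstream, and for Ccr7 at 18.3 kb downstream and 12.6 and 15.7 kb upstream. The remaining ones were Cxcr5 at 11.1 and 36.0 kb upstream, Gpr183 at 31.7 kb upstream and Ccr6 at chr17:8437705-8437931. Sequences were read with pysam 0.24.0 from NCBIM37, which is mm9, and gene positions were taken from GENCODE on the same build. All pairs of libraries within a group differed by more than sampling noise. Per the paper, each nB and BMPC library came from a mouse of its own and each GCB library from pooled mice, so p-values measure the spread between mice or pools.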

Additional observations from a re-analysis of the deposited data

How the results depend on the processing

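At the regions chosen by the naming rule, the direction of each called cell type difference and of the BMPC genotype differences examined was kept in the alternatives run, and in 2368 of 2444 such comparisons the side of the limits was kept as well. Counts of called receptor regions stayed within 1.5 times, except with a pseudocount of 5 RPPM, which shrinks the fold changes of low regions by construction: 28 in C GCB against C nB, 50 in C BMPC against C nB, 36 in C BMPC against C GCB, 26 in KO GCB against KO nB, 50 in KO BMPC against KO nB and 35 in KO BMPC against KO GCB, beside 51, 87, 59, 53, 76 and 55. For KO against C in BMPC, the 1 call became 0 with a pseudocount of 5 RPPM, with quantile normalization and in a fit of the compared groups only, and 4 with edgeR's likelihood ratio test; the cause was not tested. Leaving out single libraries gave 0 to 1. Over all regions, KO against C in BMPC gave 69 calls with limma, 1201 with edgeR's quasi-likelihood test, 1677 with its likelihood ratio test and 489 with DESeq2. Leaving out single libraries moved the limma count to 1 without either KO BMPC library, 11 and 15 without C BMPC replicate 2 or 3, 114 without C BMPC replicate 1, 44 and 43 without KO nB replicate 1 or 2, and 209 and 108 without KO GCB replicate 1 or 4. Quantile normalization moved the higher share of receptor calls in C BMPC against C GCB from 17 of 59 to 23 of 59. In a paired analysis, a replicate block by GCB pool name left 0 calls for KO against C in GCB, as without it; libraries with the same pool name had deviations correlated at 0.0363 and 0.0638, and were not treated as pairs; beyond sex, what a shared pool name stands for is not given in the sources used here. The lower depth of GCB libraries limits what was detectable near 3 reads, 1.32 to 3.30 RPPM there.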
